A study of Mus musculus with 14 samples.

Results

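Cathepsins are the proteases of the lysosome, and 10 of their genes were described here across 4 kinds of mouse peritoneal macrophage: Ctsa, Ctsb, Ctsc, Ctsd, Ctsf, Ctsh, Ctsk, Ctsl, Ctss and Ctsz. They were found by matching the accession of each microarray probe to the gene symbols, which gave 12 of the 55681 probes and 10 of the 20342 genes tested. All 12 probes passed the filter on dim probes, and every member was well above background on all 14 arrays. Ctsa and Ctsd had 2 probes each and the other members 1.

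Each array held RNA of C57BL/6 mouse cells sorted as positive for CD11b and for the surface product of Adgre1, which are used to pick out macrophages. Thio+IL-4c (4 arrays) came from mice injected in the peritoneum with 2 ml of 4% thioglycollate medium together with IL-4 complex, which is 5 µg of the cytokine IL-4 bound to 25 µg of 11B11, an antibody against it. Thio (3 arrays) came from mice given the thioglycollate alone, IL-4c (4 arrays) from mice given the complex alone, and PBS (3 arrays) from mice given the vehicle. Thioglycollate is an irritant broth that draws monocytes into the cavity. The labels accordingly call PBS and IL-4c cells resident, and Thio and Thio+IL-4c cells monocyte-derived. IL-4 induces the alternatively activated state of macrophages, and the study asked how cells of the different origins take it on. The labels give neither age nor sex nor the time of harvest, and they do not say whether replicates were separate animals, so p-values measure the spread between these samples, which may be technical.

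Cathepsins are made as inactive precursors, carried to the lysosome by mannose 6-phosphate receptors and sortilin, and cut to their active form in its acid interior. Most are cysteine proteases (B, C, F, H, K, L, S and Z), held in check by cystatins and stefins, while cathepsin D is an aspartic and cathepsin A a serine protease. In macrophages they digest engulfed protein, trim the invariant chain from MHC class II molecules and, when secreted, degrade collagen and elastin. Many lysosomal genes carry the E-box CACGTG near their start, to which TFEB and its relatives TFE3, MITF and TFEC bind.

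The promoters of 3 members are shown because these genes behaved differently below: Ctsk was the most induced, Ctss lies beside it on the chromosome and fell with IL-4c, and Ctsd carries 2 E-boxes. Each is the 250 bases before the start of the gene in RefSeq on the build GRCm38.p6, read 5′ to 3′ along the gene, with the E-box CACGTG or the PU.1-type core GAGGAA (on the opposite strand TTCCTC) in capitals. The Ctsk window is chr3:95498960-95499209 on the plus strand, the Ctss window chr3:95526536-95526785 on the plus strand and the Ctsd window chr7:142387828-142388077 on the minus strand.
Ctsk: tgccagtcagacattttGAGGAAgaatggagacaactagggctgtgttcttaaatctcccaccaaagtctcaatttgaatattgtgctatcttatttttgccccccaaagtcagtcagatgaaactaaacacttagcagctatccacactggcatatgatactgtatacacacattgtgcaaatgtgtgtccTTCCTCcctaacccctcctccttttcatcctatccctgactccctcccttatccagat
Ctss: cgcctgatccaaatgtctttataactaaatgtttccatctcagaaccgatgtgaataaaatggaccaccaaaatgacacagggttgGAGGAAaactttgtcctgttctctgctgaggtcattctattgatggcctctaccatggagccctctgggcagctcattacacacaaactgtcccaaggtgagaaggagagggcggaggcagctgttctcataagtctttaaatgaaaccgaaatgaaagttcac
Ctsd: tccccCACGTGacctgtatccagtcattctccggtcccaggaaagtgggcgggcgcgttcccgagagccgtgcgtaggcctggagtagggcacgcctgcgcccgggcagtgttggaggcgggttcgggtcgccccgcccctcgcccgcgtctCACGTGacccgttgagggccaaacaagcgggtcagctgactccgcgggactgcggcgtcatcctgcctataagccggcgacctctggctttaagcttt

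The promoter table held 8 of the 10 members. A member was counted if any of its windows held the motif, while the shares below are of single windows. CACGTG, which reads the same on both strands, was in 4 of the 8 (Ctsa, Ctsd, Ctsf and Ctsl) and in 6.02% of 32851 promoter windows of the same length. For Ctsa, a window with 1 E-box and another with 0 were listed. GAGGAA was in 3 of the 8 (Ctsc, Ctsk and Ctss) and in 23.3% of all windows. The STAT6-type motif, TTC and GAA with 4 bases of any kind between them, was in 0 of the 8 and in 5.85% of all windows, and the AP-1 motif TGANTCA in 0 of the 8 and in 6.75%. Both strands were searched, no match of these motifs overlapped another in the printed windows, and the motifs were chosen with the results known. In IL-4c cells against PBS the members with an E-box went both ways: Ctsa and Ctsl rose while Ctsd and Ctsf fell. Of these, the Ctsa rise was seen on 1 of its 2 probes, and the Ctsd call depends on the scaling. In Thio+IL-4c against Thio all 4 had a negative difference. It was called for Ctsa, Ctsd and Ctsf (log2 -1.62, -0.99 and -0.97) and not for Ctsl (-0.34, adjusted p = 0.08 in limma). Of the members whose windows held no E-box, Ctsk, Ctss and Ctsz were negative there too (log2 -2.17, -0.21 and -0.08), and Ctsc had 0.28. The part of the E-box in these differences was not tested. Ctsk and Ctss are neighbours on chromosome 3 with 1 annotated gene, Gm40096, between them.

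A level below is the log2 of a probe's processed signal minus the log2 of its array's 75th percentile, so 0 is the 75th percentile and 1 unit is a doubling. Levels of different genes cannot be set against each other. That percentile ran from 1275.4 to 3883.4 signal units, with 1275.4 to 1818.5 on PBS and 3058.7 to 3883.4 on IL-4c arrays, and 79.1% to 95.6% of probes were well above background. Slide 1 held all IL-4c arrays, all PBS arrays and the first Thio array, and slide 2 the other Thio arrays and all Thio+IL-4c arrays. IL-4c and PBS were thus compared within a slide. Thioglycollate and slide coincide except for the first Thio array, which also stood apart from its group. Across genes it correlated with the other Thio arrays at as little as 0.849 and with the PBS arrays at 0.918 to 0.931, against 0.985 between Thio arrays 2 and 3. Cathepsin results whose call turns on it are given with and without it, or within a slide.

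The sort markers were measured in every group. Adgre1 and Itgam, which encodes CD11b, were each lower in Thio than in PBS cells by a log2 difference of -1.81 (SE 0.10, adjusted p = 6.6e-08 for Adgre1 and SE 0.11, adjusted p = 1.9e-07 for Itgam). Adgre1 was also lower in Thio+IL-4c than in Thio (log2 -1.20, SE 0.09) and in IL-4c than in PBS (log2 -0.27, SE 0.09), where Itgam had 0.09 and -0.17 and was not called. The summed signal of 6 measured macrophage markers was 129 to 144 multiples of the 75th percentile in Thio+IL-4c, 215 to 296 in Thio, 234 to 242 in IL-4c and 685 to 798 in PBS. In each of these 3 comparisons 4 of the 6 fell. The shares of all genes called lower were 24.3% in Thio versus PBS, 23.1% in Thio+IL-4c versus Thio and 15.3% in IL-4c versus PBS. The same sum over 7 measured neutrophil markers was 12.6 to 18.7 in Thio+IL-4c, 8.53 to 17.0 in Thio, 2.91 to 3.31 in IL-4c and 3.75 to 4.58 in PBS, and all 7 were well above background on every array. The summed signal of 7 B cell markers was 1.95 to 2.04 in Thio+IL-4c, 2.29 to 2.62 in Thio, 2.62 to 3.06 in IL-4c and 9.30 to 17.0 in PBS. That of 8 mesothelial and stromal markers was 2.00 to 2.25 in Thio+IL-4c, 2.28 to 3.84 in Thio, 0.548 to 0.685 in IL-4c and 0.882 to 1.04 in PBS, with 7, 8, 4 and 3 of the 8 well above background on every array. That of 6 mast cell markers was 1.48 to 1.97 in Thio+IL-4c, 1.90 to 4.41 in Thio, 3.13 to 3.50 in IL-4c and 6.21 to 7.62 in PBS. Over all groups the sum of 6 T and NK cell markers was 7.74 to 13.2 and that of 5 eosinophil markers 1.48 to 3.60. These sums moved with the groups, and their part in the cathepsin differences was not tested. In sorted bulk RNA, fewer cells of a type and less RNA per cell cannot be told apart.

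**Figure D1:**
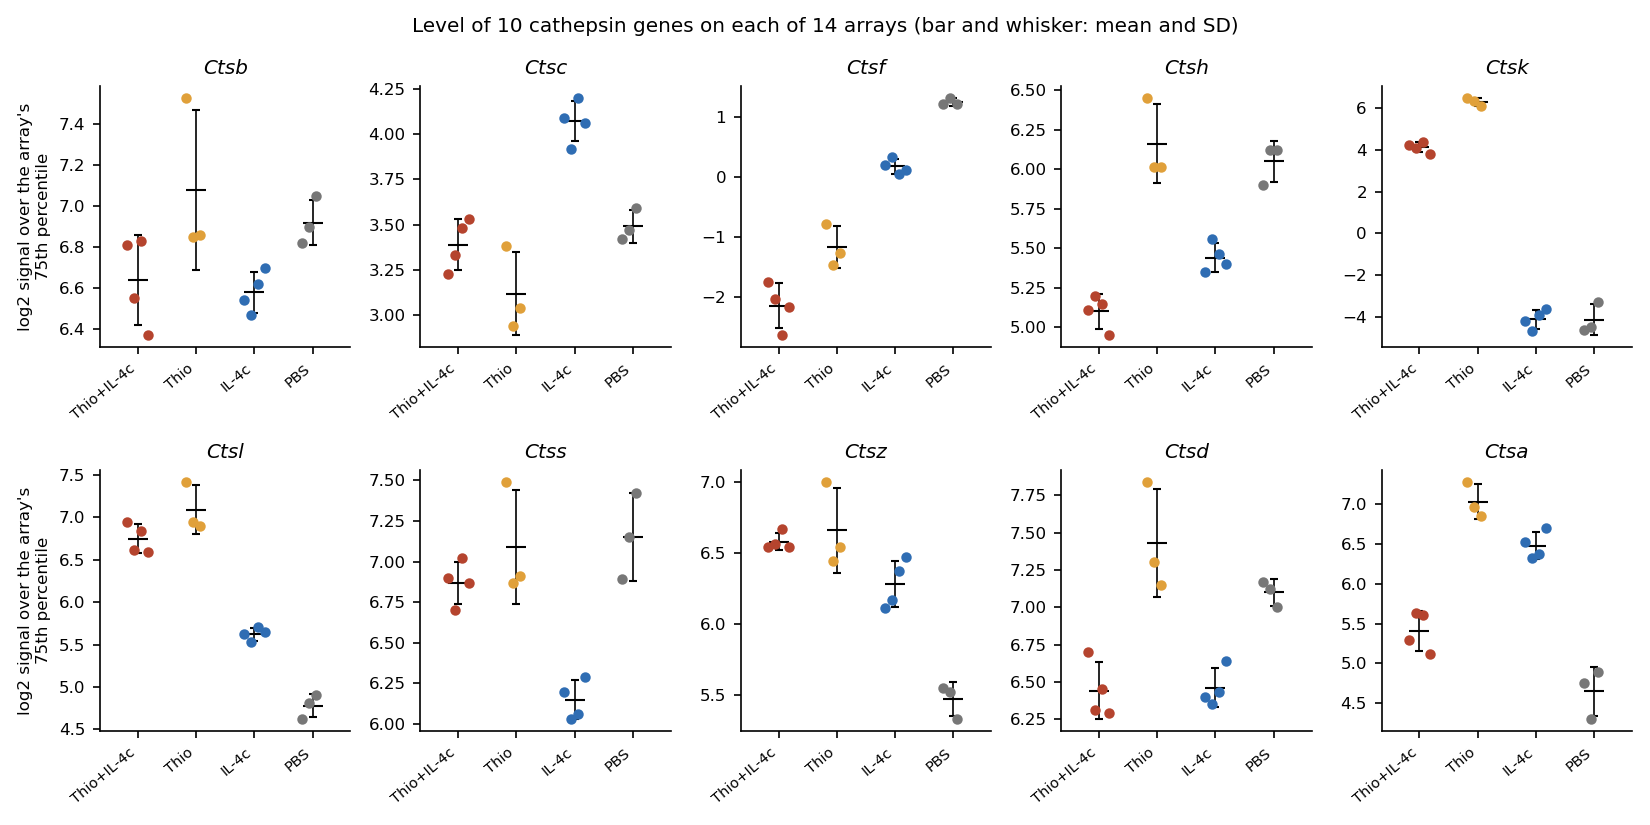
Levels (log2 signal over the 75th percentile of the array, vertical axis, scaled separately in each panel) of 10 cathepsin genes in Thio+IL-4c (4 arrays), Thio (3), IL-4c (4) and PBS (3), with 1 point per array, replicate 1 leftmost, and the mean and SD as bar and whisker. Ctsk separates the thioglycollate groups (3.80 to 6.48) from the other two (-4.70 to -3.27), Ctsf is highest in PBS, and Ctss is lowest in IL-4c.

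Ctsk, the collagen-degrading protease best known from osteoclasts, set the thioglycollate groups apart. Its level was 4.23, 4.10, 4.38 and 3.80 in Thio+IL-4c, 6.48, 6.34 and 6.09 in Thio, -4.19, -4.70, -3.92 and -3.62 in IL-4c, and -4.65, -4.49 and -3.27 in PBS. Thio was highest, Thio+IL-4c second, and both lay above all resident arrays. IL-4c and PBS overlapped. The first Thio array, although closer to the PBS arrays over all genes, had the highest Ctsk level of its group. This held for all 10 members on the brighter or only probe. Before scaling its Ctsk signal was the lowest of the group, at 204404 against 281294 and 242986. Its 75th percentile was the lowest too, at 2294.4 against 3481.2 and 3578.3. Within each array the Ctsk probe ranked at the 96.0 to 96.9 percentile in Thio+IL-4c, the 99.4 to 99.6 in Thio, the 26.8 to 37.9 in IL-4c and the 21.1 to 40.02 in PBS.

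Ctsl and Ctsz were lowest in PBS. Cathepsin L is an endoprotease and cathepsin Z a carboxypeptidase. The level of Ctsl was 6.95, 6.62, 6.84 and 6.59 in Thio+IL-4c, 7.42, 6.95 and 6.90 in Thio, 5.62, 5.53, 5.71 and 5.65 in IL-4c, and 4.62, 4.81 and 4.90 in PBS. The level of Ctsz was 6.54, 6.56, 6.67 and 6.54 in Thio+IL-4c, 7.0, 6.44 and 6.54 in Thio, 6.11, 6.17, 6.37 and 6.47 in IL-4c, and 5.55, 5.52 and 5.33 in PBS. For Ctsl the thioglycollate groups overlapped each other, and IL-4c lay between them and PBS with no overlap. For Ctsz, Thio overlapped both Thio+IL-4c and IL-4c, and PBS alone lay apart from all others.

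Ctsa, whose product is also the protective protein that holds lysosomal beta-galactosidase and neuraminidase together, was ordered differently. On its brighter probe the level was 5.29, 5.63, 5.61 and 5.12 in Thio+IL-4c, 7.28, 6.96 and 6.85 in Thio, 6.52, 6.32, 6.37 and 6.70 in IL-4c, and 4.75, 4.30 and 4.89 in PBS. No groups overlapped, with Thio highest, then IL-4c, then Thio+IL-4c and PBS lowest. The dimmer probe gave another order. Its level was -1.36, -1.12, -1.20 and -1.40 in Thio+IL-4c, 0.22, 0.64 and 0.65 in Thio, -1.56, -1.57, -1.41 and -1.16 in IL-4c, and -1.32, -0.99 and -1.21 in PBS. On that probe Thio alone lay apart, and the high level of IL-4c cells was not seen.

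Ctsf, a protease that in mouse macrophages can process the invariant chain, fell away from PBS in every other group. Its level was -1.75, -2.02, -2.63 and -2.16 in Thio+IL-4c, -0.78, -1.46 and -1.27 in Thio, 0.21, 0.33, 0.05 and 0.12 in IL-4c, and 1.22, 1.32 and 1.21 in PBS. The 4 groups did not overlap. Unlike for Ctsk, the resident groups lay above the thioglycollate groups, while Thio+IL-4c lay below Thio for both genes.

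Ctss, Ctsh, Ctsd and Ctsb were lower in IL-4c than in PBS on every array. The arrays of these groups did not overlap for 53.3% of all genes, in either direction, and for 9 of the 10 members. Cathepsin S, the main protease of the invariant chain in antigen-presenting cells, had a level of 6.90, 6.70, 7.02 and 6.87 in Thio+IL-4c, 7.49, 6.87 and 6.91 in Thio, 6.20, 6.03, 6.06 and 6.29 in IL-4c, and 6.89, 7.15 and 7.42 in PBS. The level of Ctsh, an aminopeptidase, was 5.11, 5.20, 5.15 and 4.95 in Thio+IL-4c, 6.45, 6.01 and 6.01 in Thio, 5.35, 5.56, 5.46 and 5.40 in IL-4c, and 5.90, 6.12 and 6.12 in PBS. IL-4c arrays were thus lowest for Ctss and Thio+IL-4c arrays lowest for Ctsh. The level of Ctsd was 6.70, 6.31, 6.45 and 6.29 in Thio+IL-4c, 7.84, 7.30 and 7.15 in Thio, 6.40, 6.35, 6.43 and 6.64 in IL-4c, and 7.17, 7.12 and 7.0 in PBS. The level of Ctsb, an abundant endoprotease that also removes dipeptides from protein ends, was 6.81, 6.55, 6.83 and 6.37 in Thio+IL-4c, 7.53, 6.85 and 6.86 in Thio, 6.54, 6.47, 6.62 and 6.70 in IL-4c, and 6.82, 6.90 and 7.05 in PBS. For Ctsd the IL-4c and Thio+IL-4c arrays overlapped each other below Thio and PBS, which also overlapped. The highest Thio value of Ctss, Ctsh, Ctsd and Ctsb was in each case the first Thio array, as it was for the other members.

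Ctsc, the dipeptidyl peptidase that activates the granule proteases of immune cells, was highest in IL-4c. Its level was 3.23, 3.33, 3.48 and 3.53 in Thio+IL-4c, 3.38, 2.94 and 3.04 in Thio, 4.09, 3.92, 4.20 and 4.06 in IL-4c, and 3.42, 3.47 and 3.59 in PBS. IL-4c arrays lay above all others, while Thio+IL-4c overlapped both Thio and PBS. Its whole range over the 14 arrays, 2.94 to 4.20, was small beside that of Ctsk.

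**Figure D2:**
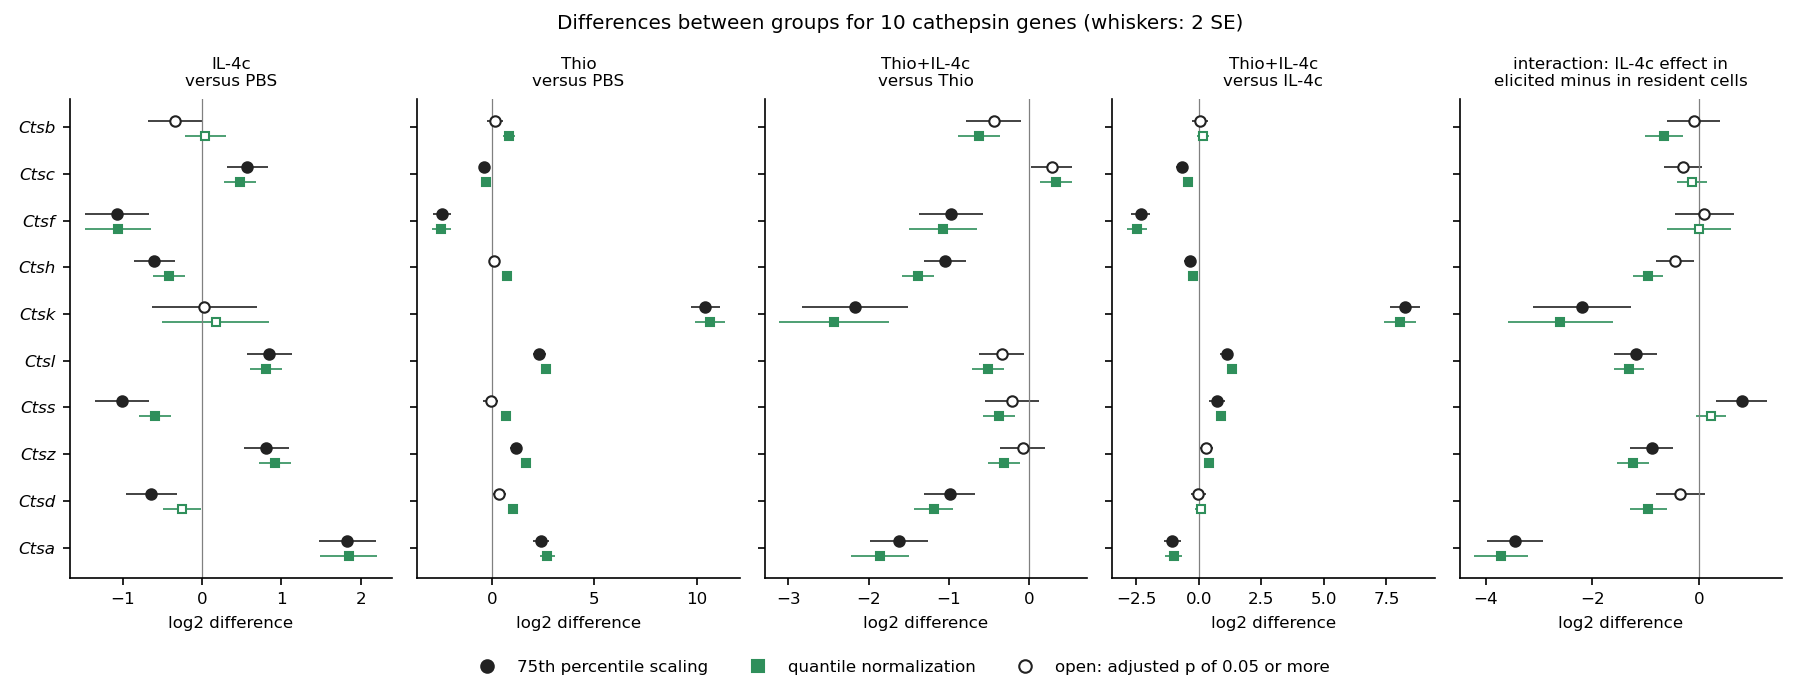
Log2 differences between groups (horizontal axis, scaled separately in each panel) of 10 cathepsin genes in 5 comparisons under 2 scalings, with whiskers of 2 SE and open symbols at an adjusted p of 0.05 or more. Ctsk stands far to the right where thioglycollate is compared (10.43 and 8.24), and Ctsa has the most negative interaction (-3.45). Under quantile normalization the brighter members shift right in Thio versus PBS and left in Thio+IL-4c versus Thio, and Ctss in Thio versus PBS turns from -0.07 to 0.66.

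The first comparison asked what IL-4 complex does to resident cells. Ctsa, Ctsl, Ctsz and Ctsc rose in IL-4c against PBS, and Ctsf, Ctss, Ctsd and Ctsh fell. Of the 10 members 4 were called higher, against 16.9% of all genes, and 4 lower, against 15.3%, at a Benjamini-Hochberg adjusted p under 0.05 in limma. The largest rise was that of Ctsa, 3.56-fold (log2 1.83, SE 0.18, adjusted p = 1.1e-05). On its dimmer probe the difference was -0.25 (SE 0.15, adjusted p = 0.25), so the rise rests on the brighter probe. Ctsl was 1.80-fold higher (log2 0.85, SE 0.14, adjusted p = 0.00063), Ctsz 1.76-fold (log2 0.81, SE 0.14) and Ctsc 1.49-fold (log2 0.57, SE 0.13).

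The largest falls were those of Ctsf, 2.10-fold lower (log2 -1.07, SE 0.20, adjusted p = 0.0013), and Ctss, 2.01-fold lower (log2 -1.01, SE 0.17, adjusted p = 0.00064). The Ctss difference was smaller under quantile normalization (-0.59) and in the authors' deposited table (-0.70), and called in both. Ctsd was 1.56-fold lower (log2 -0.64, adjusted p = 0.0094) and Ctsh 1.52-fold lower (log2 -0.60, adjusted p = 0.0026). The Ctsd call depends on the scaling: the difference was -0.25 (adjusted p = 0.16) under quantile normalization and -0.32 (0.17) in the authors' deposited table, although the dimmer Ctsd probe had -1.07 (adjusted p = 8.3e-05). The Ctsh difference was -0.25 (0.22) in the authors' deposited table. Ctsb had -0.34 (SE 0.17, adjusted p = 0.18), with 0.04 under quantile normalization, and passed with the first Thio array left out (-0.34, adjusted p = 0.037), which changes only the estimate of the spread. Ctsk had 0.03 (SE 0.33, adjusted p = 0.97), and -0.16 in the authors' deposited table.

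The signal at the bright end of the arrays differed between groups, and most members lie there. The 99th percentile of the level was 6.03 to 6.12 in Thio+IL-4c, 5.61 to 6.01 in Thio, 6.04 to 6.19 in IL-4c and 6.37 to 6.43 in PBS. Ctsb, for example, ranked at the 99.86 to 99.87 percentile of its array in Thio and at the 99.32 to 99.45 in PBS, although its levels in these groups overlapped. The part of this difference in the cathepsin values was not tested, and where quantile normalization, which equalises the arrays, changes the call of a cathepsin, its value is given.

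Thio versus PBS set elicited against resident cells without IL-4 complex. Ctsk, Ctsa, Ctsl and Ctsz rose, and Ctsf and Ctsc fell. The 4 members called higher compare with 20.2% of all genes and the 2 called lower with 24.3%. Ctsk was 1380-fold higher in Thio (log2 10.43, SE 0.35, adjusted p = 1.7e-09). Its PBS signal before scaling was low, at 72, 81 and 132 units, and in the authors' deposited table the difference was 9.38. Ctsa was 5.22-fold higher (log2 2.38, SE 0.20, adjusted p = 2e-06), Ctsl 4.98-fold (log2 2.32, SE 0.15, adjusted p = 3.3e-07) and Ctsz 2.29-fold (log2 1.19, SE 0.15, adjusted p = 6.7e-05). On the dimmer Ctsa probe the rise was 1.68 (SE 0.16). Ctsf was 5.35-fold lower (log2 -2.42, SE 0.22, adjusted p = 3.8e-06).

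These 5 differences kept their direction with and without the first Thio array. Within slide 1, where that single Thio array met the PBS arrays and its spread was taken from the other groups, the log2 differences were 10.61 for Ctsk, 2.63 for Ctsa, 2.65 for Ctsl, 1.54 for Ctsz and -2.03 for Ctsf. Without that array, which leaves Thio and PBS on different slides, they were 10.35, 2.26, 2.15, 1.02 and -2.61 in the same order of genes, each called. Ctsc was called at -0.37 (SE 0.13, adjusted p = 0.041) but had -0.12 against the single Thio array of slide 1 and -0.50 (0.0028) without the first Thio array. The Ctsc call was also lost when any PBS array, Thio array 2 or 3, IL-4c array 1 or 4, or Thio+IL-4c array 2 or 3 was left out, with adjusted p-values of 0.051 to 0.16.

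Ctsb, Ctsd, Ctsh and Ctss were not called in Thio versus PBS, with log2 differences of 0.16, 0.33, 0.11 and -0.07. All 4 were higher under quantile normalization, at 0.83, 1.02, 0.72 and 0.66, so that 8 members were called higher and 2 lower there, against 21.8% and 25.0% of all genes. In the authors' deposited table the same 4 differences were 0.31, 0.42, 0.29 and 0.12, with none called. The first Thio array alone, within slide 1, differed from PBS by 0.61, 0.74, 0.40 and 0.33. Without that array the 4 differences were -0.07, 0.13, -0.04 and -0.27, with none called. The dimmer Ctsd probe was 1.26 higher (SE 0.15, adjusted p = 3.8e-05), with levels of 6.44, 6.21 and 6.13 in Thio against 5.10, 5.09 and 4.82 in PBS. The direction of these bright members relative to PBS was thus not settled: their differences depended on the scaling, on the first Thio array and, for Ctsd, on the probe.

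**Figure D3:**
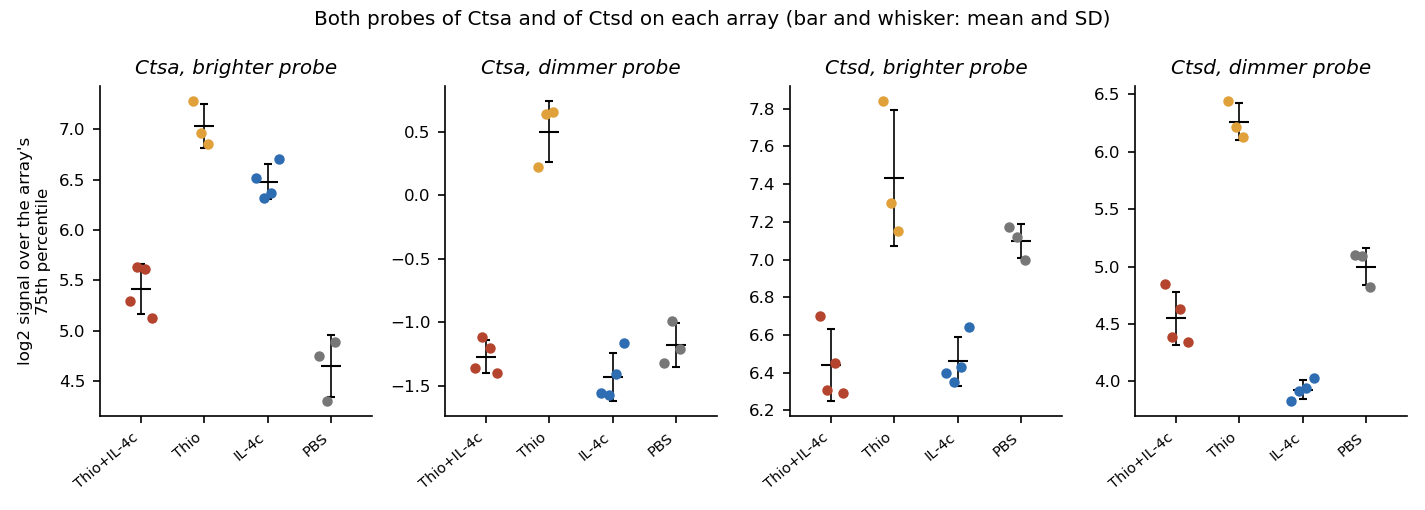
Levels (log2 signal over the 75th percentile of the array, vertical axis, scaled separately in each panel) on the brighter and the dimmer probe of Ctsa and of Ctsd, with 1 point per array, replicate 1 leftmost, and the mean and SD as bar and whisker. Thio is highest on all 4 probes in its mean, while IL-4c lies above PBS on the brighter Ctsa probe (6.48 and 4.65) and not on the dimmer (-1.43 and -1.18).

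Thio+IL-4c versus Thio asked what IL-4 complex does to elicited cells. Here 5 members fell, Ctsk, Ctsa, Ctsh, Ctsd and Ctsf, and 0 rose. The background was 23.1% of all genes called lower and 16.2% called higher. Ctsk was 4.50-fold lower in Thio+IL-4c (log2 -2.17, SE 0.33, adjusted p = 0.00023), Ctsa 3.07-fold (log2 -1.62, SE 0.18, adjusted p = 2.3e-05), Ctsh 2.08-fold (log2 -1.05, SE 0.13, adjusted p = 3.7e-05), Ctsd 1.99-fold (log2 -0.99, SE 0.16, adjusted p = 0.00045) and Ctsf 1.96-fold (log2 -0.97, SE 0.20, adjusted p = 0.0023). The dimmer probes of Ctsa and Ctsd fell as well (log2 -1.77, SE 0.15, and -1.71, SE 0.14). Within slide 2, which leaves out the first Thio array, the 5 differences were -2.08, -1.49, -0.91, -0.79 and -0.78 in the same order, and each was called.

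The other 5 members did not pass. Ctsb had -0.44 (adjusted p = 0.065), Ctsl -0.34 (0.08), Ctss -0.21 (0.33), Ctsz -0.08 (0.65) and Ctsc 0.28 (0.10). Under quantile normalization all 5 passed, at -0.62, -0.51, -0.37, -0.31 and 0.34, which gave 9 members lower, against 24.4% of all genes there, and 1 higher, against 16.9%. Within slide 2 they were -0.21, -0.18, -0.01, 0.09 and 0.40, and Ctsc alone passed (adjusted p = 0.012). Ctsb also passed without Thio array 2 or 3 (-0.56, adjusted p = 0.036, and -0.55, 0.044), and Ctsl without Thio array 3 (-0.44, 0.048).

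Thio+IL-4c versus IL-4c set elicited against resident cells that had both received IL-4 complex. Ctsk was 302-fold higher in Thio+IL-4c (log2 8.24, SE 0.30, adjusted p = 2.8e-09), Ctsl 2.18-fold (log2 1.12, SE 0.13) and Ctss 1.66-fold (log2 0.73, SE 0.16, adjusted p = 0.0016). In the authors' deposited table the Ctsk difference was 7.22. Ctsf was 4.99-fold lower (log2 -2.32, SE 0.19, adjusted p = 1.1e-06), Ctsa 2.09-fold (log2 -1.06, SE 0.17), Ctsc 1.59-fold (log2 -0.67, SE 0.12) and Ctsh 1.27-fold (log2 -0.34, SE 0.12, adjusted p = 0.02). These are 3 members higher, against 27.9% of all genes, and 4 lower, against 42.2%.

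The groups of this comparison lie on different slides throughout, so slide and thioglycollate can be told apart only through the first Thio array. With slide as a block the differences of Ctsk, Ctsl, Ctss and Ctsf were 8.50, 1.62, 1.33 and -1.74 and remained called. Those of Ctsa, Ctsc and Ctsh were -0.69 (adjusted p = 0.14), -0.28 (0.29) and 0.09 (0.73). The dimmer Ctsa probe had 0.16 (adjusted p = 0.32). The Ctsh call was also lost without IL-4c array 2 (-0.30, adjusted p = 0.058) or Thio+IL-4c array 4 (-0.29, 0.059). Ctsb had 0.06, Ctsd -0.02 and Ctsz 0.30 (adjusted p = 0.058), and none of these was called. With slide as a block Ctsb had 0.74 (adjusted p = 0.029) and Ctsz 0.81 (0.0079), both called, and Ctsd 0.60 (0.061). Under quantile normalization Ctsz was called at 0.42 (adjusted p = 0.0021), while Ctsb had 0.16 and Ctsd 0.07. In the authors' deposited table the 3 differences were -0.30 for Ctsb, -0.38 for Ctsd (adjusted p = 0.047) and -0.05 for Ctsz. Ctsz also passed without IL-4c array 4 (0.36, adjusted p = 0.041), Thio array 1 (0.30, 0.012) or Thio array 2 (0.30, 0.047). On the dimmer Ctsd probe the difference was 0.62 (adjusted p = 0.0011).

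The interaction tested whether the effect of IL-4 complex differed between the origins, as the Thio+IL-4c minus Thio difference less the IL-4c minus PBS difference. It was called negative for Ctsa, Ctsk, Ctsl and Ctsz and positive for Ctss, that is for 4 members, against 19.9% of all genes, and for 1, against 12.7%. Ctsa had the largest, -3.45 (SE 0.26, adjusted p = 2.7e-06), from a log2 difference of -1.62 in elicited and of 1.83 in resident cells. On its dimmer probe the interaction was -1.52 (SE 0.21, adjusted p = 0.00019), from -1.77 and -0.25. Both probes thus fell in elicited cells, and they differed in what IL-4 complex did in resident cells.

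For Ctsk the interaction was -2.20 (SE 0.46, adjusted p = 0.0033), from -2.17 in elicited and 0.03 in resident cells, where its level was already low. For Ctsl it was -1.19 (SE 0.20, adjusted p = 0.00084), from -0.34 and 0.85, and for Ctsz -0.89 (SE 0.20, adjusted p = 0.0047), from -0.08 and 0.81. These 2 genes rose with IL-4 complex in resident cells and did not pass in elicited cells, whose levels were higher than those of PBS cells to begin with. Without the first Thio array the interactions of Ctsa, Ctsk, Ctsl and Ctsz were -3.32, -2.11, -1.03 and -0.72, and each was called.

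For Ctss the interaction was 0.80 (SE 0.24, adjusted p = 0.025), from -0.21 and -1.01. It was 0.22 (0.25) under quantile normalization and 0.30 (0.33) in the authors' deposited table, so this call did not hold under another scaling. It was also lost without PBS array 2 or 3 (adjusted p = 0.05 and 0.068), Thio array 2 or 3 (0.055 and 0.057) or Thio+IL-4c array 3 (0.05), while without the first Thio array it was 1.0 (0.0019). Ctsb, Ctsc, Ctsd, Ctsf and Ctsh had interactions of -0.10, -0.30, -0.35, 0.10 and -0.45, none called. Ctsb (-0.66, adjusted p = 0.014), Ctsd and Ctsh (-0.95 each) were called under quantile normalization, where Ctsf had -0.01. In the authors' deposited table Ctsc (-0.72, adjusted p = 0.011), Ctsd (-0.80) and Ctsh (-1.0) were called, and the dimmer Ctsd probe had -0.64 (adjusted p = 0.027).

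Of the 50 pairs of member and comparison, 31 were called. Under the 3 other scalings, which were quantile normalization, a normexp background correction followed by it, and the authors' deposited table, 27 of the 31 calls held. Under those 3 and 20 further settings on the same probes, 24 held, of which that of Ctsa in IL-4c versus PBS was lost on its dimmer probe (-0.25, adjusted p = 0.25). Among these 24 are the Ctsk, Ctsa, Ctsl, Ctsz and Ctsf calls in Thio versus PBS, and all 5 calls in Thio+IL-4c versus Thio.

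The genes around the cathepsins were taken from lists chosen with results of these data known. Cathepsin inhibitors moved in both directions, as genes did in general. Of 11 tested, 2 rose and 3 fell in IL-4c versus PBS, against 16.9% and 15.3% of all genes. In Thio versus PBS 1 rose and 5 fell, against 20.2% and 24.3%. In Thio+IL-4c versus Thio 2 rose and 3 fell, against 16.2% and 23.1%. Cst7, which encodes cystatin F, an inhibitor that acts inside lysosomes and controls cathepsin C, averaged 1.33 ± 0.33 in Thio+IL-4c (SD, n = 4), -5.24 ± 0.83 in Thio (n = 3), 4.02 ± 0.15 in IL-4c (n = 4) and -3.76 ± 0.08 in PBS (n = 3). It rose by 7.78 (SE 0.31) with IL-4 complex in resident and by 6.58 (SE 0.31) in elicited cells, and its interaction of -1.20 did not pass (adjusted p = 0.054) but was called without the first Thio array (-0.73, adjusted p = 0.041). It was well above background on 2 of the 3 Thio arrays.

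Cstb, which encodes stefin B, a cytosolic inhibitor of cathepsins, followed Ctsk instead. It averaged 4.94 ± 0.12 in Thio+IL-4c, 6.00 ± 0.20 in Thio, 2.24 ± 0.24 in IL-4c and 2.40 ± 0.08 in PBS, so it was 3.60 higher in Thio than in PBS (SE 0.15, adjusted p = 1.1e-08) and 1.06 lower in Thio+IL-4c than in Thio (log2 -1.06, SE 0.14). Cst3, the secreted cystatin C, was highest in PBS at 7.67 ± 0.06 and was lower in IL-4c (log2 -1.05, SE 0.17) and in Thio (log2 -0.97, SE 0.18). Under quantile normalization the difference was -0.50 (adjusted p = 0.018) in IL-4c and -0.09 (0.62) in Thio, so the second call depends on the scaling. The cathepsin propeptide-like genes Ctla2a and Ctla2b fell in IL-4c against PBS (log2 -5.40, SE 0.23, and -3.48, SE 0.24), where 2 of the 4 arrays had Ctla2a not well above background, while the stefin Stfa3 rose by 2.22 (SE 0.32).

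**Figure D4:**
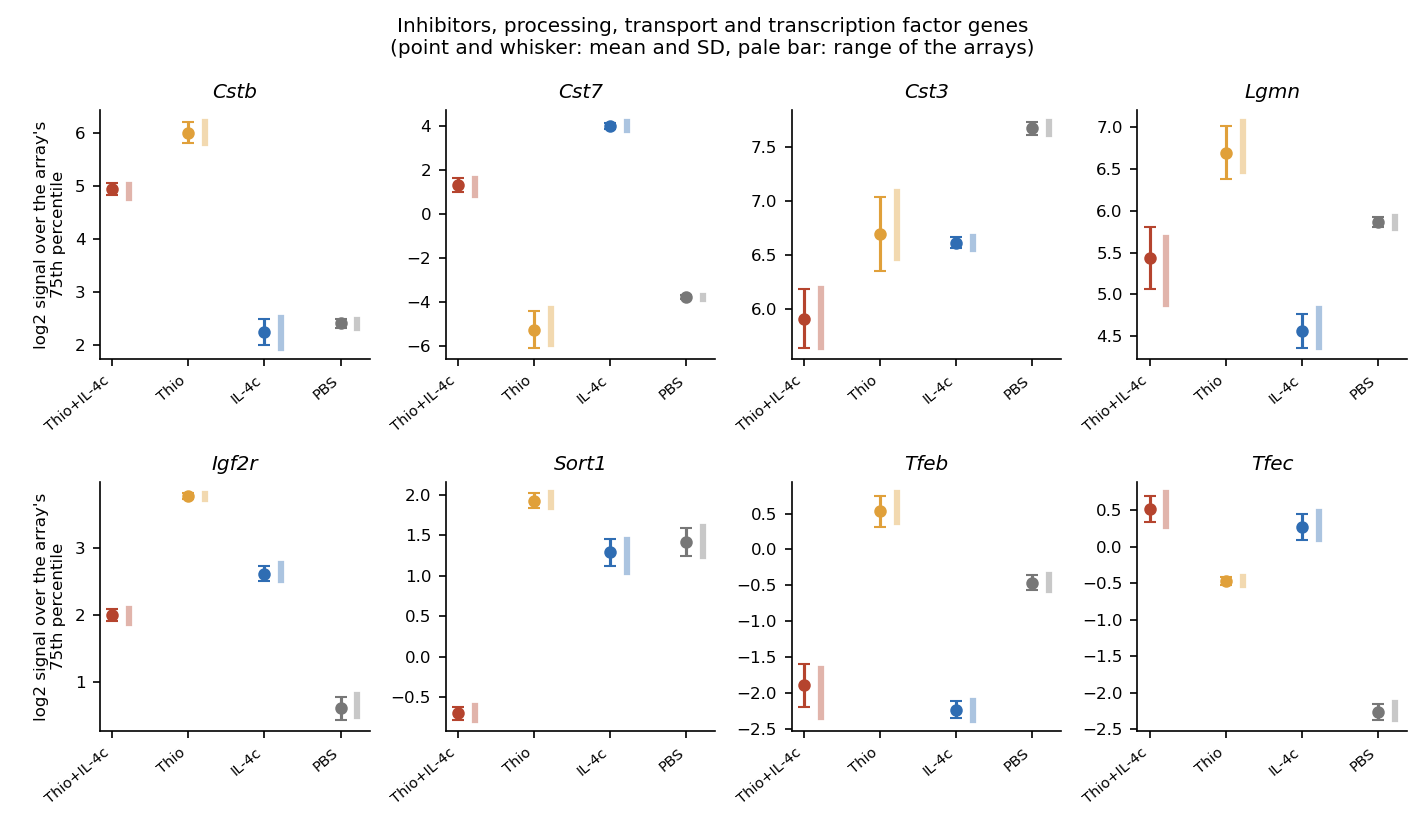
Levels (log2 signal over the 75th percentile of the array, vertical axis, scaled separately in each panel) of 8 genes that inhibit, cut, carry or regulate cathepsins in Thio+IL-4c (4 arrays), Thio (3), IL-4c (4) and PBS (3), with the mean and SD as point and whisker and the range of the arrays as a pale bar. Cstb is high in both thioglycollate groups (4.94 and 6.00), Cst7 in both IL-4c groups (1.33 and 4.02), and Igf2r, Lgmn, Sort1 and Tfeb are highest in Thio.

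Of 13 genes of lysosomal processing and transport, including partners of cathepsin A in its complex, most were higher in Thio than in PBS and lower in Thio+IL-4c than in Thio. In Thio versus PBS 10 rose and 1 fell, against 20.2% and 24.3% of all genes, with a median log2 difference of 0.67 against -0.09. When IL-4 complex was added to thioglycollate 13 of 13 fell, against 23.1% of all genes, with a median of -1.10 against 0.03. Without the first Thio array 12 fell, and Psap had -0.39 (adjusted p = 0.095). In IL-4c versus PBS 3 rose and 2 fell, against 16.9% and 15.3%. Igf2r, the large mannose 6-phosphate receptor, averaged 2.00 ± 0.09 in Thio+IL-4c, 3.77 ± 0.04 in Thio, 2.61 ± 0.11 in IL-4c and 0.60 ± 0.17 in PBS. Its interaction of -3.76 (SE 0.15) ran the same way as that of Ctsa, with IL-4c above PBS and Thio+IL-4c below Thio. For Ctsa, IL-4c lay above PBS on the brighter probe only. Sort1, the sorting receptor sortilin, fell by 2.63 (SE 0.12) in Thio+IL-4c against Thio. Lgmn, the asparaginyl endopeptidase that cuts several cathepsins to their two-chain form, was 0.83 higher in Thio than in PBS (SE 0.22) and fell with IL-4 complex in resident (log2 -1.31, SE 0.20) and elicited cells (log2 -1.27, SE 0.20).

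Another 27 lysosomal hydrolases give the setting for the cathepsins. Against Thio, 23 of them fell in Thio+IL-4c and 0 rose, against 23.1% and 16.2% of all genes. The median was -1.34, against -0.70 for the 10 cathepsins and 0.03 over all genes. In IL-4c versus PBS 3 rose and 14 fell, against 16.9% and 15.3% of all genes, with a median of -0.44 against -0.16 for the cathepsins. In Thio versus PBS 13 rose and 6 fell, against 20.2% and 24.3%, with medians of 0.31 and 0.25. Galc, which cleaves galactosylceramide, was the most lowered in elicited cells at -3.46 (SE 0.18), and Tpp1, a lysosomal tripeptidyl peptidase, was 2.00 higher in Thio than in PBS (SE 0.15). No test set the cathepsins against this list.

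Among 7 transcription factor genes, the members of the TFEB family did not all move together. Tfeb averaged -1.89 ± 0.30 in Thio+IL-4c, 0.53 ± 0.22 in Thio, -2.23 ± 0.12 in IL-4c and -0.46 ± 0.10 in PBS, and so fell with IL-4 complex in resident (log2 -1.76, SE 0.16) and in elicited cells (log2 -2.42, SE 0.16). Tfe3 fell with IL-4 complex in both as well (log2 -0.46, SE 0.09, and -0.44, SE 0.09). Tfec, the macrophage-restricted relative of Tfeb, rose with IL-4 complex in both, by 2.53 (SE 0.13) and 1.0 (SE 0.13). Mitf rose in IL-4c against PBS by 0.69 (SE 0.13) and fell in Thio+IL-4c against Thio (log2 -0.53, SE 0.13), but its other probe went the other way in elicited cells. Irf8, a regulator of macrophage identity, fell in IL-4c (log2 -6.23, SE 0.21) and in Thio+IL-4c (log2 -3.05, SE 0.21), each against the group without IL-4 complex.

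Of 8 osteoclast-type genes, the setting in which Ctsk is best known, 5 rose and 1 fell in Thio versus PBS. The shares of all genes were 20.2% and 24.3%. Atp6v0d2, a proton pump subunit, was at least 2050-fold higher in Thio than in PBS, where it was well above background on 0 of 3 arrays (measured means 5.03 and -6.74, adjusted p = 1.8e-08). This bound sets the mean of the bright group against the lowest signal well above background on the dim arrays, or the probe's own signal where that was higher. Acp5, the tartrate-resistant acid phosphatase, was 4.82 higher (SE 0.29). In Thio+IL-4c against Thio, Atp6v0d2 fell by 1.72 (SE 0.50) as Ctsk did, Dcstamp, a receptor for cell fusion, rose by 2.64 (SE 0.44), and Acp5 had -0.15 (adjusted p = 0.66).

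MHC class II genes, whose invariant chain cathepsins S, L and F can process, moved with IL-4 complex differently in elicited and resident cells. The interaction term was called for 10 of 10, 9 positive and 1 negative, against 12.7% and 19.9% of all genes. Against Thio, 9 of 10 rose and 0 fell in Thio+IL-4c, beside 16.2% and 23.1% of all genes. Cd74, the invariant chain itself, was 1.97 higher (SE 0.25, adjusted p = 6.3e-05), while Ctss had -0.21 and Ctsl -0.34. In IL-4c versus PBS 1 rose and 4 fell, against 16.9% and 15.3%, with a median of -0.64 beside the -1.01 of Ctss. Without the first Thio array 2 rose and 7 fell. Cd74 had -0.65 in IL-4c versus PBS (adjusted p = 0.074), which passed under quantile normalization (-0.71, adjusted p = 0.037) and without the first Thio array (-0.65, 0.042). The summed signal of 5 dendritic cell markers moved with these genes in elicited cells, at 3.31 to 5.46 multiples of the 75th percentile in Thio+IL-4c and 0.594 to 2.59 in Thio. Of the 5 markers 2 rose and 1 fell there, against 16.2% and 23.1% of all genes. The sum was 5.31 to 6.38 in IL-4c and 2.18 to 3.41 in PBS, and 4, 4, 5 and 4 of the 5 were well above background on every array of Thio+IL-4c, Thio, IL-4c and PBS. Its part in the class II differences was not tested.

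The other 12 cathepsin genes on the array were tested as well. Of these, 1 rose and 0 fell in IL-4c versus PBS, against 16.9% and 15.3% of all genes. In Thio versus PBS 1 rose and 3 fell, against 20.2% and 24.3%. In Thio+IL-4c versus Thio 0 rose and 2 fell, against 16.2% and 23.1%. Most are placental cathepsins of rodents, and 6 of the 12 (Cts3, Cts6, Cts7, Cts8, Ctsj and Ctsq) were not well above background on every array of 1 or more groups. Ctso was measured on all arrays and fell in Thio+IL-4c against Thio (log2 -1.18, SE 0.25, adjusted p = 0.0027). Against IL-4c, 7 rose and 3 fell in Thio+IL-4c, beside 27.9% and 42.2% of all genes, but with slide as a block 0 rose.

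The genes whose levels ran most like a member's over the 14 arrays were found by Pearson correlation among 18755 named genes. These correlations describe 14 arrays that share slides and treatments. For Ctsk they were Mmp12, the macrophage elastase (r = 0.998), Sdc1, the proteoglycan syndecan (0.994), and Cstb (0.993). For Ctsl they included Lgals3, which encodes galectin-3 (0.986), and Efhd2 (0.985), and for Ctsf they were Armc3, Rgl3 and Pgap4 (0.991 each). Ctsz ran with Wdr1 (0.976) and Prnp (0.961), among others, Ctsh with Cd180, Zfp358 and Nckap1l (0.977 each), and Ctsd with Cd99 (0.974), Cc2d1b (0.967) and Tmem205 (0.965). Ctsa ran with Slc66a1, a lysosomal amino acid transporter (0.972), Bex3 (0.969) and Rcn2 (0.968), and Ctsc with Pfkl (0.979), Dis3l and Pclaf (0.964 each). The closest genes were less alike for Ctss (Gnb4 at 0.932, Napb at 0.931 and Pisd at 0.929) and for Ctsb (Nek7 at 0.905, Ctsd at 0.885 and Snx33 at 0.884). Ctsd was the only member among the closest genes of another member.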

How the data were processed

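The authors deposited 1 scanner table of Cy3 spot intensity per array, made with Agilent Feature Extraction 11.5 per the submitters' processing notes, which also name limma. The file headers give another version, 11.0.1.1, on every array. The processed signal used is, per the file headers, an intensity already corrected for background. A table of the authors' own log2 values was deposited too. Its median is 9.2341 on every array, and its correlation with the scanner's log2 median signal is 0.9889 to 0.9951. Its background correction was not given in the sources used here.

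Of 62976 spots per array, 3671 control spots and 113 to 165 spots marked as outliers were left out, and none was saturated. Probes were named by accession through a RefSeq table of GRCm38.p6, which gave 27235 of 55681 probes 1 symbol and left 28446 unnamed. From the log2 processed signal the log2 of the array's 75th percentile was subtracted. Probes had to be well above background on 3 or more arrays, and the brightest probe stood for a gene. The 5 comparisons were fitted by lmFit, contrasts.fit and eBayes of limma 3.58.1 (R 4.3.3) on all 14 arrays together, without a block, and called two-sided at a Benjamini-Hochberg adjusted p under 0.05 over 20342 genes. The number of arrays limits the precision. The fit was tested on simulated data.

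Alternatives were quantile normalization, normexp (offset 50) before it, the authors' values, no filter, the mean of probes, slide or replicate number as a block, array weights and each array left out. The planned normexp correction used the median spot signal, because a mean signal was not in the tables used. The dimmer probes of Ctsa and Ctsd were tried after seeing the data. All cathepsin genes were named. From each list, at most 2 called genes that rose most and 2 that fell most per comparison could be named, besides Lgmn, Cst3, Cstb, Cst7, Tfeb, Tfec, Mitf and Cd74, of which a selection is given. Any other list gene was chosen after its values were seen. The members and lists were chosen with earlier results of these data known. Some of the genes closest to Ctsl and Ctsz are not reported here.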

Additional observations from a re-analysis of the deposited data

Results flagged for a closer look

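The IL-4 complex effect differed between elicited and resident cells for 5 cathepsin genes, tested by the interaction term in limma. The interaction was -3.45 for Ctsa, -2.20 for Ctsk, -1.19 for Ctsl and -0.89 for Ctsz, all of them kept under each other scaling and with each array left out. It was 0.80 for Ctss, and that call was lost under the 3 other scalings. The 4 Thio+IL-4c arrays of Ctsz held a highest value of 6.67 that stood further from the other 3 than Dixon's limit. Such a gap was looked for in 20 groups of 4 arrays, and chance gives about 1 in 20.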

How the results depend on the processing

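Members called were 10 in place of 6 in Thio versus PBS and 10 in place of 5 in Thio+IL-4c versus Thio under quantile normalization with and without normexp alike. Leaving out 1 array gave 8 to 9 members called in IL-4c versus PBS, 5 to 6 in Thio versus PBS, 5 to 7 in Thio+IL-4c versus Thio, 6 to 8 in Thio+IL-4c versus IL-4c and 4 to 5 in the interaction. Called among all genes were 9052 in Thio versus PBS, but 6017 and 5844 with slide as a fixed and a random block, 14511 with array weights and 13876 without the first Thio array. In Thio+IL-4c versus IL-4c they were 14250, but 5427 and 5595 with slide as a fixed and a random block. The median of all genes in Thio+IL-4c versus IL-4c was -0.21, and -0.43 in the authors' table, and in the interaction -0.05 and -0.20.

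The differences that changed sign were these, of which those of Ctsa and that of Ctsh in Thio+IL-4c versus IL-4c were called in the values reported and the others were not. In IL-4c versus PBS: Ctsa -0.25 on the other probe, Ctsb 0.04 and 0.03 under quantile normalization without and with normexp, and Ctsk -0.16 in the authors' table. In Thio versus PBS: Ctsb -0.04 and Ctsh -0.04 with array weights, and Ctss 0.66, 0.71 and 0.12 under the 3 scalings and 0.33 and 0.26 with slide as a fixed and a random block. In Thio+IL-4c versus Thio: Ctsz 0.09, 0.06 and 0.07 with slide as a fixed and a random block and array weights. In Thio+IL-4c versus IL-4c: Ctsa 0.16 on the other probe, Ctsb -0.30 and Ctsz -0.05 in the authors' table, Ctsd 0.07 and 0.05 under quantile normalization without and with normexp, 0.30 on the mean of probes, 0.60 and 0.48 with slide as a fixed and a random block and 0.62 on the other probe, and Ctsh 0.09 and 0.01 with those blocks. In the interaction: Ctsb 0.13, 0.08 and 0.06 with both slide blocks and array weights, and Ctsf -0.01, -0.03 and -0.32 under the 3 scalings. Leaving out 1 array also changed signs, with ranges of -0.23 to 0.46 for Ctsk in IL-4c versus PBS, -0.07 to 0.28 for Ctsb, -0.04 to 0.18 for Ctsh and -0.27 to 0.07 for Ctss in Thio versus PBS, -0.19 to 0.09 for Ctsz in Thio+IL-4c versus Thio, 0.00 to 0.15 for Ctsb and -0.10 to 0.05 for Ctsd in Thio+IL-4c versus IL-4c, and -0.22 to 0.13 for Ctsb and -0.04 to 0.29 for Ctsf in the interaction. The causes were not tested.

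Of 460 member values under settings that keep all arrays, 367 kept direction and call, 47 gained a call, 15 lost one and 31 changed sign. With 1 array left out these were 659, 8, 16 and 17. Replicate numbers did not pair the arrays: the deviations of 19 same-numbered pairs correlated at -0.446 to 0.367, 4 of them over 0.1. With the replicate block 8, 5, 5, 7 and 5 members were called in the 5 comparisons, Ctsc in Thio versus PBS being lost (adjusted p = 0.062), and 5792, 7744, 6975, 13727 and 5840 of all genes.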
